A study of Caenorhabditis elegans with 8 samples.

Results

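The regions on chromosome III are those intervals of the deposited list of strain-specific regions that lie on chromosome III of Caenorhabditis elegans. They were chosen by chromosome alone, and they number 238 of 1207 regions in the whole list. RNA immunoprecipitation and sequencing (RIP-seq) recovers RNA crosslinked to a tagged protein. Here the tagged protein was MSTR-1, the product of gene F22D6.2. The worms carried the allele F22D6.2(on49[MSTR-1::3xFLAG]) I at the gene's own place on chromosome I (strain WD656), or were wild-type N2 without any FLAG tag. Both strains were young adults grown at 25 °C and crosslinked with 2% formaldehyde for 30 min. Each strain gave a RIP library and an input library of whole worm lysate in 2 biological replicates, 8 samples in all. Region names in the deposited list carry RIP replicate 2 of MSTR-1, and each region has a single set of values. The values below thus come without replicate error, the depth of each library is unknown, and no comparison could be tested over samples.

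Worm autosomes have a gene-dense centre that recombines little and 2 arms that recombine more and hold more repeats. Conserved, widely expressed genes lie more often in the centre. Many neighbouring worm genes on the same strand are also transcribed together as operons. RIP-seq is made to measure RNA, so a region is read as part of a transcript. Whether the reads of each region came from transcripts was not tested.

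For each region the authors gave a fold, the ratio of treatment to control at the summit, and a −log10 q. The number of reads at the summit (the pileup) and the control level were recovered from the authors' fold and p-value. Control levels began at 13.49 reads, where 304 of the 1207 regions stood (25.2%). Every listed region at that level had at least 26 reads and a fold of at least 1.86. On chromosome III the median of the authors' fold was 2.07 (quartiles 1.78 and 2.41, range 1.11 to 4.65), against 2.13 (1.77 and 2.55, range 1.11 to 5.66) on the other chromosomes. On III 141 regions (59.2%) had a fold of 2 or more, against 58.2% of the 969 regions elsewhere and 58.4% of all regions. Coverage on III was lower: the median pileup was 44.5 reads over a control level of 19.1, against 58 reads over 24.9 on the other chromosomes. The lowest control level held 87 regions of III (36.6%), against 217 regions (22.4%) elsewhere. The median −log10 q was 4.3 on III, against 6.02 on the other chromosomes.

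Chromosome III carried many regions for its number of genes. Of its 2642 protein-coding genes, 181 carried at least 1 region (6.85%, exact 95% binomial interval 5.92 to 7.88). Over all chromosomes 4.78% of protein-coding genes did, and over the other chromosomes together 773 of 17329 (4.46%, 4.16 to 4.78). By chromosome the share was 5.53% on I, 5.24% on IV, 4.98% on X, 3.83% on II and 3.48% on V. These intervals cover counting error only. A single region of III touched no protein-coding gene, and 13 touched more than 1.

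The regions of III lay most densely in a short stretch across the end of the left arm, from 3651348 to 4069307. It was found after the values were seen, as the longest chain of regions of III with no gap above 50 kb. In 418 kb, 3.03% of the chromosome, it held 42 regions, 17.6% of those on III. Over the rest of III there were 1.47 regions per 100 kb. The longest such chain on another chromosome held 18 regions, on IV from 8067781 to 8236513. Windows of 500 kb held at most 42 regions on III and at most 25 on any other chromosome. Of the 75 protein-coding genes in the stretch, 32 carried a region. Without the stretch, 149 of the 2567 remaining genes of III did (5.80%).

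**Figure D1:**
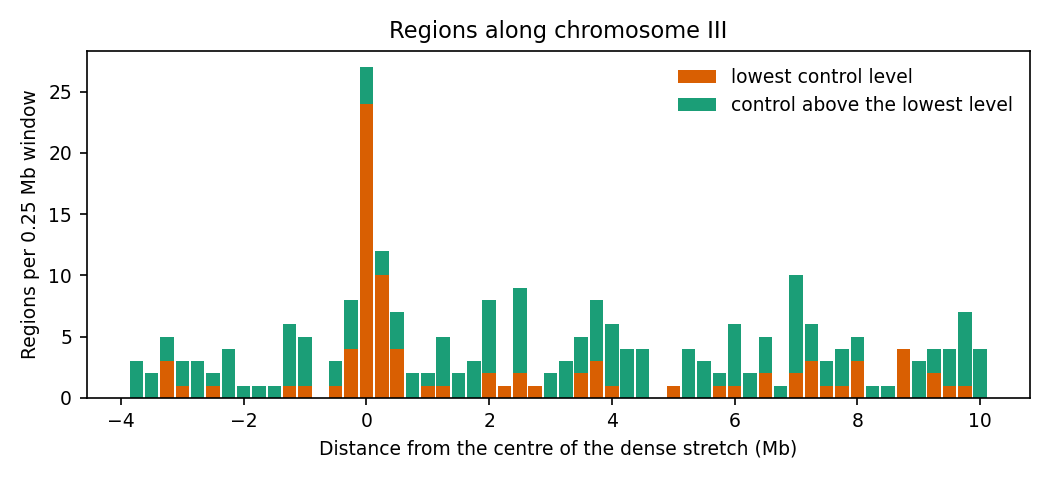
Number of regions of chromosome III in consecutive windows of 0.25 Mb, by distance in Mb from the centre of the dense stretch. Orange bars are regions at the lowest control level of 13.49 reads and green bars those above it. The window at 0 holds 27 regions and the next highest 12, while the median window holds 3.5.

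The dense stretch differed from the rest of III in coverage. Its regions sat at the lowest control level in 34 of 42 cases (81.0%), against 53 of 196 (27%) over the rest of III. In the chain of 18 regions on IV, 16 were at that level too. The regions of the dense stretch had a median pileup of 30 reads, against 48.5 over the rest of III. Their median fold was 2.04 (quartiles 1.93 and 2.14), against 2.08 (1.73 and 2.47). Because the lowest control level is shared, each read number gives a single fold. Of the 34 regions at that level, 27 had 26 to 31 reads and so folds between 1.86 and 2.21. The authors' −log10 q had a median of 2.75 in the stretch, against 4.73 over the rest of III. The stretch was chosen for its density, and none of these differences was tested.

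**Figure D2:**
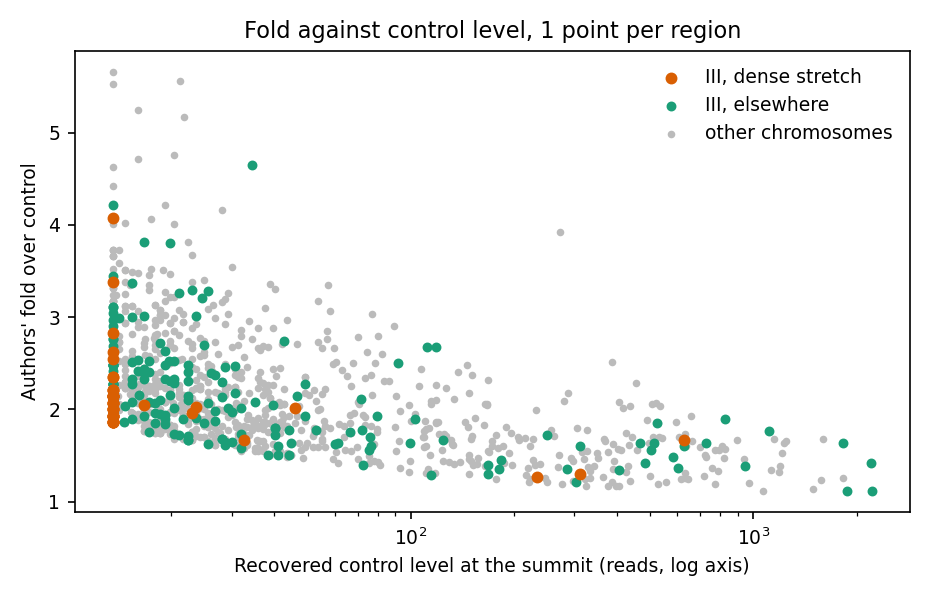
The authors' fold of each region (vertical axis, ratio) against the recovered control level at the summit (horizontal log axis, reads), for the dense stretch of III, the rest of III and the other chromosomes. Most regions of the stretch stand in the column at 13.49 reads, and its 3 regions above 100 reads are those of tbb-2, with folds of 1.27 and 1.30, and rpl-3, with 1.67.

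Genes of many kinds lay in the stretch, in this order along the chromosome. gsr-1, which encodes glutathione reductase, opened it with folds of 1.96 from 46 reads and 1.67 from 55 reads, and the second of these regions also touches C46F11.5. pdi-1, a protein disulfide isomerase gene, had 2.02 from 94 reads over a control level of 45.96. These first 3 regions were above the lowest control level. wdr-5.1, of the complex that methylates histone H3 lysine 4, had 2.55 from 36 reads. The pseudogene C14B1.7, which held the region outside protein-coding genes, had 1.86 from 26 reads, and egc-1 had 2.07 from 29. A region over both evl-18 and F34D10.8 had 2.14 from 30 reads. F34D10.4 had 2.05, arcp-1 had 1.93 and 1.86, and C44F1.1 had 2.14.

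The highest fold of the stretch came next. lec-4, a galectin gene, had a fold of 2.83 from 40 reads, and acy-3, an adenylyl cyclase gene, had 2.00 and 1.86. xbx-5, toh-1 and dpy-27 followed without a gene between them. toh-1, which encodes an astacin metalloprotease, had 4.07 from 58 reads (95% Poisson interval 44 to 75), the third highest fold on III, level with that of epc-1. Its neighbour xbx-5 had 2.07 from 29 reads (19.4 to 41.6). dpy-27, which encodes a condensin subunit of the dosage compensation complex on the X chromosomes, had 2.35 from 33 reads (22.7 to 46.3). The interval of toh-1 does not overlap that of xbx-5 and overlaps that of dpy-27, and all 3 shared the control level of 13.49. toh-1 was named for its high fold and the intervals cover counting error only, so no difference between these genes was tested.

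Further on, the cytochrome P450 genes cyp-25A1 and cyp-25A2 had 2.07 and 2.07 in the first and 2.21 in the second. C36A4.4 had 2.62 from 37 reads, and maph-1.3, related to microtubule-associated proteins, had 2.03 from 49 reads over 23.62. brc-1, the worm BRCA1 gene of DNA repair, had 4 regions with folds of 2.00, 1.93, 2.00 and 2.14, each from 27 to 30 reads. The pseudogene C36A4.12 overlaps 2 of these 4 regions, with the summit inside it, so they cannot be assigned to brc-1 alone. rpl-3, which encodes a protein of the larger ribosomal subunit, was far better covered: its fold of 1.67 came from 1048 reads (985.5 to 1113.4) over 627.49. tir-1, of innate immune signalling, had 1.93 and 2.21, and pat-3, the beta integrin of muscle attachment, had 3.38 from 48 reads (35.4 to 63.6). ZK1058.3 had 1.86.

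The stretch closed with nlp-10, a neuropeptide-like gene, at 2.14, R10E9.3 at 1.86 and 1.93, and pxd-1 at 2.21. tbb-2, which encodes a beta-tubulin, had 1.27 and 1.30 from 296 and 404 reads over 232.98 and 311.5. tftc-5 had 2.14, nssp-30 had 1.93, and rcq-5, a RecQ helicase gene, had 2.14 and 2.35. The last was unc-79, needed for a neuronal sodium leak channel, with 2.00 from 28 reads. The 43 genes of the stretch with no region included his-69, his-70, lin-48 and msi-1.

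The numbers in the region names add to this picture. They run upward along III from 425 to 759, so the 97 numbers that do not occur in the list (29% of 335) can be placed between neighbouring listed regions. On the other chromosomes 160 of 1129 numbers (14.2%) do not occur. Between unc-79 and rnp-4, in the 337.1 kb from 4069308 to 4406358, 56 of 64 numbers (87.5%) are missing from the list. The 8 listed there, in rnf-121, dnj-16, pelo-1, nhr-20, depd-5 (2 regions), R10E4.11 and R10E4.9, were all at the lowest control level, with folds of 1.86 to 2.48. The stretch and this neighbour together span 755.0 kb and take 120 numbers, 35.8% of those of III. Over the rest of III 27 of 215 numbers (12.6%) do not occur. What the missing numbers stood for was not given in the sources used here, and the cause of their concentration was not tested.

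By domain, with the arms taken to end at 4 and 10 Mb, the left arm held 74 regions, the centre 100 and the right arm 64. That is 18.5, 16.7 and 16.9 regions per Mb, while protein-coding genes numbered 158, 230 and 168 per Mb. A region was carried by 57 of 631 genes of the left arm (9.03%, 6.91 to 11.5), 78 of 1377 of the centre (5.66%, 4.50 to 7.02) and 46 of 634 of the right arm (7.26%, 5.36 to 9.56). The background over all chromosomes was 4.78%. The lead of the left arm rested on the dense stretch, 34 of whose 42 regions lie before the boundary: without it the shares were 5.46%, 5.27% and 7.26%. With the boundaries moved outward to 3.7 and 10.3 Mb the left arm had 5.75%, the centre 6.90% and the right arm 7.86%. With the chromosome divided into 3 equal lengths the shares were 9.74%, 4.80% and 6.84% from left to right.

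**Figure D3:**
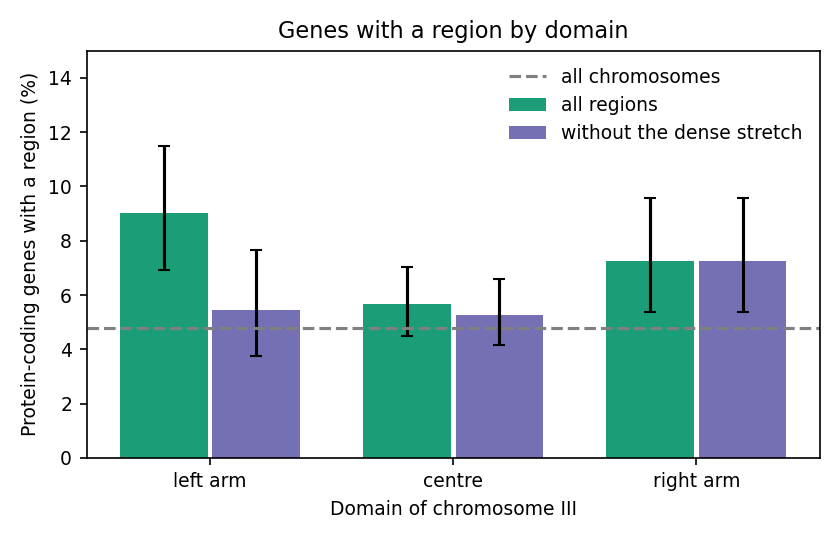
Share of protein-coding genes with a region (percent) in each domain of chromosome III, for all regions and without the dense stretch. Error bars are exact 95% binomial intervals, and the dashed line is the 4.78% over all chromosomes. The left arm is highest with all regions, at 9.03%, and has 5.46% without the stretch.

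None of the differences between domains that follow was tested. The median fold was 2.06 in the left arm, 2.14 in the centre and 2.02 in the right arm. Regions were narrowest in the centre, with a median width of 521 bp, against 882.5 bp in the left arm and 731.5 bp in the right arm. The lowest control level held 48.6% of the left arm's regions, 31% of the centre's and 31.2% of the right arm's. Without the dense stretch it held 8 of the 40 regions of the left arm. Regions with a control level above 100 reads numbered 6 in the left arm, 20 in the centre and 7 in the right arm. A fold of 4 or more was reached by 3 regions of the right arm, those of rbm-7, rle-1 and epc-1, and by that of toh-1 in the left arm.

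The highest folds of III were spread over both arms and the centre. rbm-7, named for its RNA-binding motif, led with 4.65 from 164 reads (139.9 to 191.1) over 34.47, in a region at 12929895 to 12931411 that also touches Y37D8A.19. It ranked 8th in the whole list. rle-1, which encodes a ubiquitin ligase that acts on the transcription factor DAF-16, had 4.21 from 60 reads (45.8 to 77.2). epc-1, the worm gene for enhancer of Polycomb, had the same 4.07 from 58 reads as toh-1. The read intervals of rle-1, epc-1 and toh-1 overlap at the same control level, so at this depth their order is not resolved.

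Below these stood lon-1 (3.81, 66 reads), which encodes a secreted protein that sets body length, and clec-150 (3.80, 78 reads), with a C-type lectin domain. pat-12, of the epidermal structures that anchor muscle to the cuticle, had 3.45, and dss-1, a small proteasome-associated protein, had 3.37. Y22D7AL.10 had 3.29, ndua-8, a subunit of respiratory complex I, had 3.28, and mlp-1, a muscle LIM protein, had 3.26. F25B5.3 had 3.21. gbf-1, a guanine nucleotide exchange factor for Arf proteins, and the region over hip-1 and T12D8.9 each had 3.11 from 44 reads. In all, 19 of the 238 regions of III reached a fold of 3, against 110 of 969 elsewhere and 129 of 1207 in the whole list. A fold of 4 was reached by 4, 19 and 23 regions, in that order.

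Regions of high coverage formed the other end. Among the 5 largest −log10 q values of III were those of 3 collagen genes whose regions also overlap dhc-4, a dynein heavy chain gene: col-94 (135.52), col-92 (116.32) and col-93 (74.83). Y82E9BR.3, which encodes a subunit of the mitochondrial ATP synthase, had 112.93, and col-98 had 65.06. Their folds were 1.64, 1.77, 1.42, 1.89 and 1.85, in that order of genes. col-93 had 3128 reads at its summit (3019.3 to 3239.6) over a control level of 2199.74, the largest pileup in the whole list. Of the 33 regions of III with a control level above 100, 2 reached a fold of 2: cox-6B and R02F2.1, each with 2.68, which were singled out after their values were seen. eef-1A.1, the translation elongation factor, had the lowest folds of III, 1.12 and 1.11, from 2480 and 2090 reads.

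Many genes carried more than 1 region. On III 48 genes had 2 or more (1.82% of its genes), against 161 elsewhere (0.929%) and 1.05% of all protein-coding genes. In the stretch 9 of the 32 genes with a region did. With 3 or more there were 14 genes on III (0.530%), against 45 elsewhere (0.260%) and 0.295% over all chromosomes. The median span of the 14 was 12183.5 bp, against 2900 bp for all 181 genes with a region and 2315 bp for all genes of III. K12H4.7 (2632 bp) and tyr-2 (3066 bp) were much shorter than the others, which spanned 8838 bp or more.

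Of the 14, pat-12 had the most, 5 regions with folds of 2.33, 3.45, 2.00, 1.93 and 1.86. let-805, which encodes myotactin, and mup-4 act with pat-12 in attaching muscle to the epidermis. let-805 had 3 regions, with 2.31, 2.90 and 2.54, and mup-4 had 4, with 2.55, 2.42, 2.33 and 1.85. pod-1, an actin-binding coronin gene, had 4 regions, with 2.01, 1.68, 2.05 and 1.51. tyr-2, related to tyrosinases, had 2.52, 1.62 and 1.97.

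The others had a range of known roles. rle-1 had 4 regions, with 2.62, 4.21, 2.51 and 2.27, and its highest fold came from 60 reads, against 36 to 40 reads in the other 3. epc-1 had 4.07, 2.55 and 2.35. ncl-1, a repressor of nucleolar size and ribosomal RNA synthesis, had 2.07, 2.52, 2.14 and 2.08. tra-1, the zinc finger factor at the end of the sex determination pathway, had 1.95, 2.28 and 2.21. gbf-1 had 3.11, 2.21 and 2.35, and akap-1, a kinase anchoring protein, had 1.84, 2.14 and 2.00. K12H4.7 had 2.50, 1.67 and 1.64, from 231, 209 and 164 reads. dhc-4 entered the 14 only through the regions it shares with col-92, col-93 and col-94. brc-1 completes them.

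Neighbouring genes often both carried regions. Of the 181 genes, 57 (31.5%) stood next to another gene with a region, in 27 runs of at least 2 consecutive genes. This share was 28.3% on I, 27.3% on IV, 25.7% on X, 21.2% on II and 17.2% on V. Several of the 27 runs of III lay in the dense stretch, among them cyp-25A1 with cyp-25A2 and lec-4 with acy-3. The share was not computed for III without the stretch, so the lead of III is not shown to hold outside it. Runs of 3 or more numbered 2 on III, against 8 on the other chromosomes together, and they held 0.265% of the genes of III, against 0.167% elsewhere and 0.180% over all chromosomes. The longer of the 2 runs was that of dhc-4 with col-92, col-93 and col-94. Each of these collagen genes had a separate region, and dhc-4 belongs to the run only through sharing those regions. The other was xbx-5, toh-1 and dpy-27, in the dense stretch. Among the 25 pairs, 9 rested on a region that touches both genes.

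Several pairs had members of known function. cox-6B, of respiratory complex IV, and nduc-2, of complex I, lay next to each other with 2.68 and 1.93. vha-1 and vha-2, which encode the proteolipid ring of the vacuolar proton pump, had 1.56 and 1.45. The collagen genes col-95 and col-96 had 1.40 and 1.62. rnp-4, of the exon junction complex, and prdx-3, a mitochondrial peroxiredoxin gene, had 1.73 and 2.29. hsp-60, the mitochondrial chaperonin, had 2.47 and 1.64 beside Y22D7AL.10 with 3.29. C16A3.6 and C16A3.5 had 3.01 and 1.75. Neither the regions nor the gene table give a strand, so these pairs cannot be sorted into operons here.

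The genes were set against 27 functional lists. Of the 181 genes, 79 fell in a list and 102 in none, and 23 lists had a member on III with a region. In the dense stretch 6 of the 32 genes with a region fell in a list. Over all protein-coding genes the share with a region was 4.78%. Each list is described by its counts alone, on III and then on the other chromosomes together (elsewhere), with no test. Lists were made from gene symbols, so genes of the same kind under other symbols were not counted, on III or elsewhere. Domains were counted only for members with a region. They do not show whether the regions or the listed genes themselves are concentrated there.

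**Figure D4:**
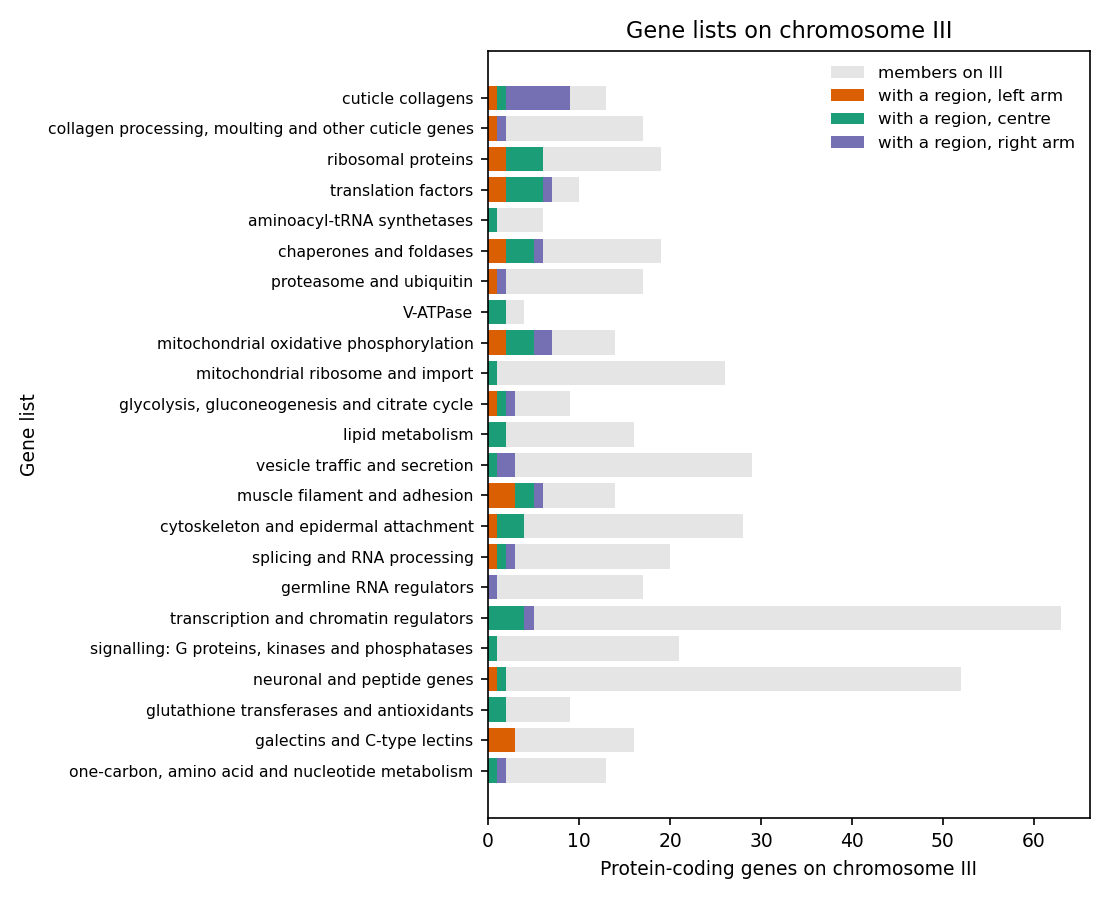
Number of protein-coding genes on chromosome III in each functional list (grey) and of those with a region, coloured by domain. Cuticle collagens have 9 of 13 members with a region, 7 of them in the right arm, and the 6 genes of the ribosomal protein list with a region all lie in the left arm or centre. Domains of members without a region are not shown.

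Collagens of the cuticle, the worm's exoskeleton, had regions in 9 of 13 genes of III (69.2%), against 69 of 163 elsewhere (42.3%). The right arm held 7 of the 9. Besides col-98 (1.85), col-92, col-94 and col-93, they were col-91, in a region shared with ncr-2, with 1.72, col-96 with 1.62, col-97 with 1.56, col-95 with 1.40 and col-88 with 1.21. Their folds had a median of 1.62, and their control levels a median of 501 reads. Many collagen genes are alike in sequence, and the treatment of reads matching more than 1 of them was not given in the sources used here. Of genes that process collagen or act in moulting, 2 of 17 had a region, against 11 of 143 elsewhere: pdi-1 (2.02), and dpy-18 (1.90), a prolyl 4-hydroxylase subunit gene.

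Genes of the ribosomal protein list had regions in 6 of 19 on III (31.6%), against 18 of 60 elsewhere (30.0%). Besides rpl-3 they were rpl-13A (1.64), rps-14 (1.63), rpl-9 (1.63), rpl-35 (1.60) and rps-3A (1.48), over a median control level of 605 reads. The list's symbols missed rpsa-1, another ribosomal protein gene, in the centre (1.36 from 820 reads), which was noticed after its values were seen. Translation factors had 7 of 10, against 14 of 41 elsewhere (34.1%). gcn-1, which senses stalled ribosomes, had 2.39, iffb-1, the initiation factor that joins the subunits, 2.16, ife-1, a cap-binding protein, 2.07, and larp-1, an RNA-binding protein, 1.72 and 1.65. eef-1B.1 had 1.35, iff-1 1.35, and eef-1A.1 has been given above. That list's symbols missed egl-45, an initiation factor gene (1.89 and 2.08), also noticed after its values were seen. Of the aminoacyl-tRNA synthetases, 1 of 6 had a region, against 1 of 27 elsewhere, dars-1 with 2.76 from 39 reads.

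Protein folding genes had 6 of 19 with a region (31.6%), against 17 of 80 elsewhere (21.2%). They were hip-1 (3.11 and 2.01), cyn-6 (2.99), cct-5 (2.48 and 1.80), a subunit of the cytosolic chaperonin, dnj-16 (2.48), hsp-60 and hsp-110 (2.08). Proteasome and ubiquitin genes had 2 of 17, against 12 of 92 elsewhere, rle-1 and ubc-20 (1.71). That list's symbols missed dss-1 (3.37) and rnf-121 (2.35), named for its RING finger, noticed after their values were seen. The vacuolar proton pump had 2 of 4, vha-1 and vha-2, against 12 of 17 elsewhere (70.6%).

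Genes of mitochondrial respiration had regions in 7 of 14 on III, against 23 of 44 elsewhere (52.3%). ucr-1, of complex III, had 2.74 and 1.93, nduf-9 had 2.72 and 2.48, and nuo-4, of complex I, had 2.63. mev-1, of complex II, had 2.10, atp-2, of the ATP synthase, 1.42, and ant-1.1, which exchanges ATP and ADP across the inner membrane, 1.39 from 1314 reads. With cox-6B these covered complexes I to IV and the synthase. The list's symbols missed ndua-8, nduc-2, ndus-8 (2.13) and Y82E9BR.3, which were noticed after their values were seen. Mitochondrial ribosome and import genes had 1 of 26, against 3 of 60 elsewhere, mrpl-44, in 2 regions shared with mccc-2 (2.14 and 2.16).

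Glycolysis and the citrate cycle had 3 of 9 (33.3%), against 16 of 35 elsewhere (45.7%): pck-1 (1.68), aldo-2 (1.60 and 1.34) and cts-1 (1.40), which encodes citrate synthase. Lipid metabolism had 2 of 16, against 19 of 116 elsewhere, mdt-15 (2.27 and 1.65), a Mediator subunit that controls fatty acid genes, and let-767 (1.29). One-carbon, amino acid and nucleotide metabolism had 2 of 13 (15.4%), against 15 of 47 elsewhere (31.9%), hpd-1 (2.52), of tyrosine breakdown, and mel-32 (1.72). Glutathione transferases and antioxidants had 2 of 9 (22.2%), against 6 of 72 elsewhere (8.33%), gst-1 (3.01 from 73 reads) and prdx-3. That list's symbols missed gsr-1, which has been given above. Galectins and C-type lectins had 3 of 16 (18.8%), against 11 of 235 elsewhere (4.68%), clec-150, lec-4 and lec-6 (1.30), all in the left arm.

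Muscle filament and adhesion genes had 6 of 14 with a region (42.9%), against 7 of 56 elsewhere (12.5%). They were pat-12, pat-3, mlp-1, mlc-4 (2.27), emb-9 (1.87) and sca-1 (1.70 and 1.64), and they lay in all 3 domains. mlc-4 encodes a non-muscle myosin light chain, emb-9 a type IV collagen of basement membranes, and sca-1 the calcium pump of the sarcoplasmic reticulum. The list goes by gene symbol, so it also counts genes outside the muscle filament, such as mlc-4, emb-9 and pat-12. Cytoskeleton and epidermal attachment genes had 4 of 28 (14.3%), against 16 of 77 elsewhere (20.8%), let-805, mup-4, unc-116 (2.41 and 1.96), the kinesin-1 heavy chain, and tbb-2. That list's symbols missed pod-1, dlc-1 (1.58) and lis-1 (2.21), noticed after their values were seen. Its symbols also took in genes outside the cytoskeleton and epidermal attachment, such as ced-4 and ced-9, which had no region. Vesicle traffic genes had 3 of 29, against 18 of 133 elsewhere: stt-3 (2.70), of N-glycosylation, chc-1 (1.61), the clathrin heavy chain, and trap-4 (1.60).

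Transcription and chromatin regulators had 5 of 63 (7.94%), against 9 of 465 elsewhere (1.94%): crh-1 (2.62 and 1.89), the worm CREB, hlh-11 (2.33), lin-13 (2.28), mdt-15 and nhr-20 (2.00). That list's symbols missed other such genes with a region, among them epc-1, tra-1 and wdr-5.1, which have been given above. Splicing and RNA processing had 3 of 20, against 9 of 84 elsewhere, rsp-8 (2.40), an SR protein gene, uaf-1 (2.01), of the U2AF splicing factor, and rnp-4. Germline RNA regulators had 1 of 17, against 6 of 69 elsewhere, atx-2 (2.48 and 1.5), the worm ataxin-2. Signalling genes had 1 of 21 (4.76%), against 15.2% elsewhere. It was gsp-2 (2.39), a protein phosphatase 1 gene, whose region also covers the snoRNA gene F56C9.12 with the summit outside it. That list's symbols missed other genes, among them the kinase genes rsks-1 (2.14 and 2.07), spk-1 (3.00 and 2.31) and efk-1 (2.48). The region of efk-1 is shared with F42A10.9, and these genes were noticed after their values were seen. Neuronal and peptide genes had 2 of 52, against 7 of 317 elsewhere, nlp-10 and eat-4, the vesicular glutamate transporter, at 2.30 in a region shared with ZK512.7. Intestinal hydrolases (3 members on III), histones (4), membrane transport genes (18) and sperm proteins (7) had none. Elsewhere the same lists had 25 of 90, 1 of 78, 9 of 197 and 1 of 93, in that order. The membrane transport list did not include sca-1, ant-1.1 and eat-4, which carry regions and were counted in other lists.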

How the data were processed

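Per the labels' protocols, the libraries came from crosslinked RNA bound to affinity-purified MSTR-1::FLAG and from inputs. STAR and deepTools were run, per the submitters' processing notes, which give no version. The genome build, the caller with its control, and how strain-specific regions were defined were not given in the sources used here. A header is absent from the deposited table. By its narrow-peak layout the authors gave each region a position, a whole-number score, a fold (a ratio), a −log10 p and q, and a summit. The score equalled 10 times the −log10 q, rounded down, in all 1207 regions. Positions are printed counting from 1. The last column, 0 to 2, has no label.

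Pileup P and control level C were solved from fold = (P + 1)/(C + 1) and the Poisson probability of more than P reads at mean C, a form assumed of the caller. On III, P differed from a whole number by at most 0.02 in 229 of 238 regions (96.2%), including all 213 with fewer than 300 reads. Intervals cover counting error only.

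Genes were assigned by 1 shared base with the RefSeq gene table of WBcel235 (19971 nuclear protein-coding genes). Of the 238 regions, 235 lay wholly inside a gene, against 205 and 201 after shifts of −100 and 100 bp. Scripts were tested on simulated data (matplotlib 3.10.9, scipy 1.17.1, pandas 2.3.3 and numpy 2.4.6 under Python 3.11.15).

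Named genes were those of the 15 highest folds, the 5 largest −log10 q, runs of at least 3 genes, genes with 3 or more regions and in each list the 4 members of highest fold, and also the dense stretch and a few others named after their values were seen. Members and lists were chosen with earlier results of these data known. No test was made between groups, because the table holds no value per library. Alternatives were the domain boundaries, the overlap rule, stricter −log10 q or fold, and leaving out the dense stretch or the lowest control level.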

Additional observations from a re-analysis of the deposited data

Results flagged for a closer look

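The last column has no label and enters no comparison above. It was above 0 in 53 of 238 regions of III (22.3%, exact 95% binomial interval 17.1 to 28.1). On the other chromosomes it was above 0 in 246 of 969 (25.4%) and over all chromosomes in 24.8%. On III each of these had the value 1, while 12 regions elsewhere had 2. It was above 0 in 26 of the 33 regions of III with a control level above 100 reads (78.8%), in 6 of 42 in the dense stretch (14.3%) and in 4 of 87 at the lowest control level (4.60%). The median pileup of the 53 regions was 164 reads, against 38 for the others of III, and their median fold was 1.80, against 2.14. What the column counts was not given in the sources used here.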

How the results depend on the processing

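Leaving out the dense stretch, or the regions at the lowest control level, was chosen after seeing the data, except that the median fold above the lowest control level had been planned. Under a −log10 q of at least 5 the share of genes with a region was 4.28% in the left arm, 3.12% in the centre and 3.94% in the right arm, and under a fold of at least 2 it was 6.02%, 3.85% and 3.94%. Above the lowest control level it was 5.55% in the left arm, 4.14% in the centre and 5.84% in the right arm, which then came first, as it did with the boundaries moved outward and without the dense stretch. The left arm had 5.75% with the boundaries at 3.7 and 10.3 Mb and 5.46% without the dense stretch. Genes of III with a region numbered 95 at a −log10 q of at least 5 and 116 at a fold of at least 2, against 181. Genes on the other chromosomes are not given at these thresholds, so the lead of III over them was not compared there. Genes with 2 or more regions numbered 11 at that −log10 q and 27 above the lowest control level, against 48. Runs of 3 or more genes numbered 4 with 1 gene allowed between, and 1 at a fold of at least 2, without the dense stretch and above the lowest control level, against 2. The median fold of III was 2.44 at that −log10 q and 1.93 above the lowest control level, against 2.07. Stricter thresholds leave fewer regions by construction; the cause of the other shifts was not tested. No paired analysis was possible because values per library are absent from the deposited table, which also means that leaving out a replicate could not be tried. At the lowest control level no listed region had a fold below 1.86.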

Other observations

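The spliced leader RNA genes sls-2.14 and sls-2.15 lay under the region of W09D6.5 (fold 3.04 from 43 reads at the lowest control level), with the summit outside both. The ncRNA genes R06B10.8, Y50D7A.14 and T05G5.17 lay under the regions of clec-150, of Y50D7A.1 with ads-1, and of iff-1, again with the summit outside. These were named after their values were seen.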
